A study of Mus musculus with 10 samples.

Results

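Genes of the cilium and the centrosome were followed on Affymetrix arrays of total RNA from mouse aorta. Members were chosen by gene symbol: those starting with Ift, Bbs, Cep, Spag, Tctn or Nphp and a digit, together with Intu, Fuz, Kif3a and Pcnt. This gave 77 genes of the 18193 that the arrays measured with a probe set of 1 gene symbol, and 75 of them were among the 14320 genes tested. Where a gene had several probe sets, the brightest over the 9 arrays stood for it. The set as a whole was selected on the measured difference between wild type and knockout, so that difference is described here, with no test of it, and supports nothing.

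The animals were male C57BL/6 mice on chow, wild type or Ptgds-/-. Ptgds encodes lipocalin-type prostaglandin D synthase (L-PGDS), and the labels give no age, no substrain and no construction of the knockout allele. The labels call the samples biological replicates, 5 of each genotype, and wild type replicate 2 has no values because it was excluded per the labels. The comparison therefore holds 9 arrays: the 4 remaining wild type replicates, numbered 1, 3, 4 and 5, and all 5 of the knockout.

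The primary cilium is a microtubule-based antenna that grows from a centriole of the centrosome in most resting cells, among them endothelial and smooth muscle cells of the artery wall. Intraflagellar transport (IFT) trains carry cargo along it, the BBSome moves membrane receptors, and the transition zone gates its base. Cells take the cilium down before they divide, when the centrosome instead organises the spindle. The symbol rule also takes in genes that do not serve the primary cilium, such as several sperm associated antigens (Spag), proteins of cell division and the long non-coding RNA Cep83os.

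Values are log2, as read from their range, and 1 unit is a doubling of signal. Ptgds itself stood at 8.68 to 10.31 on the wild type arrays and at 3.67 to 4.40 on the knockout arrays, so every array matched its label. The fitted difference was −5.30 (SE 0.32), with an adjusted p of 0.000587 in limma; only 1 of the 5 knockout arrays lay over the floor of 4, so its size is not exact. The smooth muscle genes Myh11 (13.67 to 13.89) and Acta2 (13.86 to 13.98) were high on all 9 arrays, as the labelled tissue should be. The arrays had medians of 5.88 to 5.97 over all probe sets. The mean correlation of an array with the 8 others was lowest for wild type replicate 3 (0.983) and ran from 0.990 to 0.992 for the rest. The mean of 9 neuron markers was 11.02 on wild type replicate 3 and 9.30 on knockout replicate 1, against 4.92 to 7.72 on the other 7, and that of 5 skeletal muscle markers was 9.86 on knockout replicate 3 against 4.21 to 4.73 elsewhere. For 4 cardiomyocyte markers the mean ran from 5.30 on wild type replicate 1 to 8.88 on wild type replicate 4. On the knockout arrays it ran from 5.72 to 8.07.

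Most genes of the set lay slightly higher in the knockout aortas. Of the 75 tested, 63 stood higher and 12 lower, and their median difference (knockout minus wild type) was 0.17 on the log2 scale. The median of all tested genes was 0.027, and 56.7% of them stood higher. Of the 77 genes, 71 lay over the floor of 4 on all arrays, 4 (Spag5, Spag6, Spag16 and Spag6l) on 6 or 8 of them, 0 through one genotype alone, and Cep72 and Spag17 on none, so these 2 were not tested. With the 2 untested genes included, the median was 0.14. The differences were small: 28 genes stood higher by over 0.2, 3 stood lower by over 0.2, and 23 lay within 0.1 of 0. In bulk tissue, more RNA per cell and more cells of a kind cannot be told apart. In limma, 0 of the 75 passed an adjusted p of 0.05, a threshold that 0.0559% of all tested genes passed (0.0279% with a higher knockout mean). Before adjustment 24 had a p under 0.05, of which 23 were higher, beside 19.9% of all tested genes; at that p 12.8% of all tested genes were higher and 7.12% lower. That count of 24 became 32 when wild type replicate 1 was left out, beside 26% of all tested genes in that fit. It was 15 without wild type replicate 3, beside 15.3% of all tested genes. Without wild type replicate 3 and knockout replicate 5 it was 10, beside 13.1% of all tested genes.

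**Figure D1:**
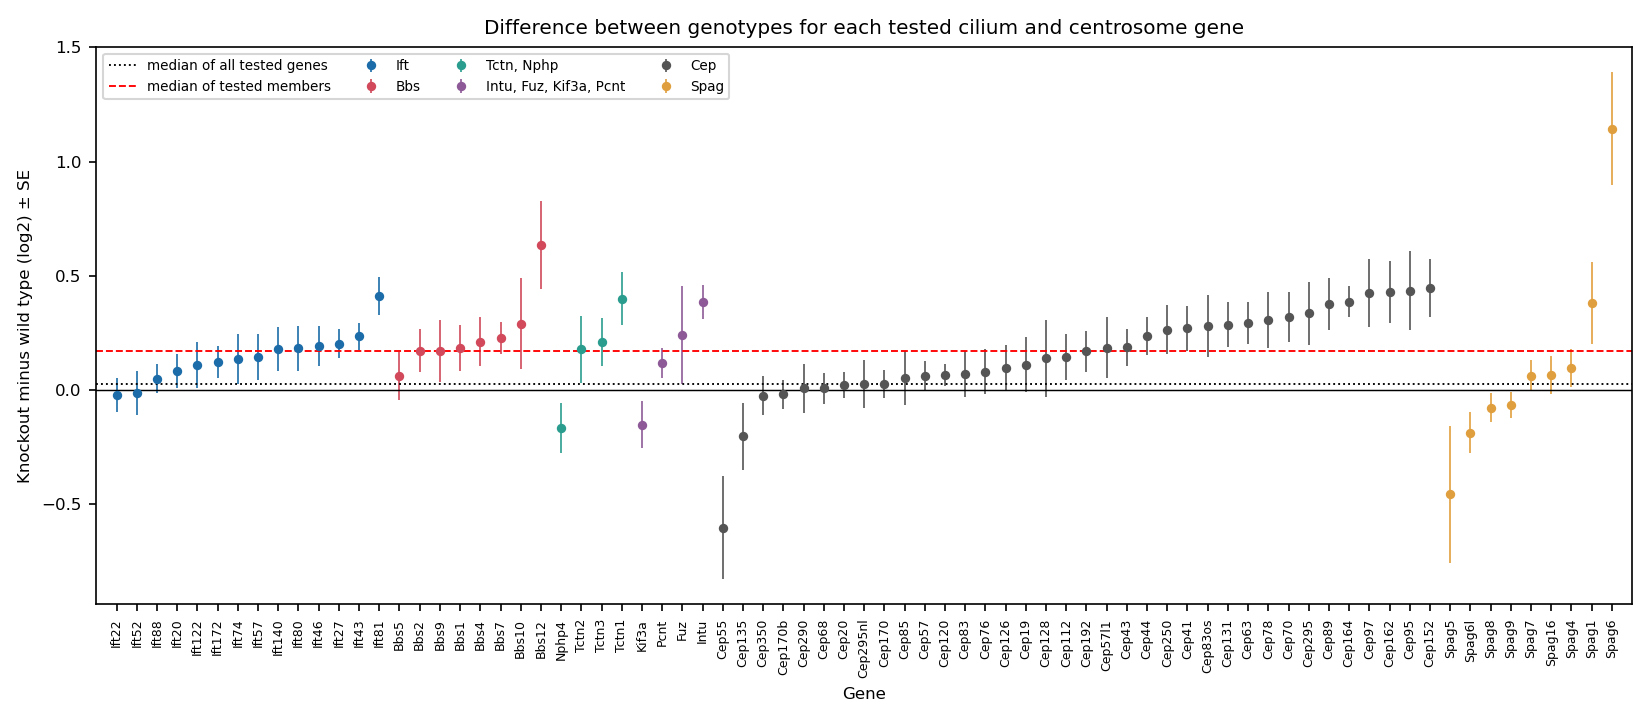
Knockout minus wild type (log2) for each of the 75 tested cilium and centrosome genes, ordered by family; points are differences of the means of 5 and 4 arrays, bars the standard error of the limma fit. The red line marks the median of these genes (0.17), the dotted line that of all tested genes (0.027); 63 points lie above 0 and 12 below.

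The IFT genes encode the subunits of the trains: complex B moves toward the tip with kinesin-2, complex A returns with dynein. Of 14 measured, 12 stood higher in the knockout, with a median of 0.14. Ift81, a complex B subunit that binds tubulin, stood at 10.41, 10.10, 10.33 and 10.10 on wild type replicates 1, 3, 4 and 5. On knockout replicates 1 to 5 it stood at 10.55, 10.69, 10.59, 10.63 and 10.76. Every knockout array lay above every wild type array, a difference of 0.41 (SE 0.083, 1.33-fold). Its further probe sets differed by 0.56 and 0.053.

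Ift43, a complex A subunit, was the other IFT gene whose groups did not overlap. Its values were 10.37, 10.29, 10.48 and 10.36 on the wild type arrays and 10.59, 10.61, 10.62, 10.70 and 10.51 on the knockout arrays, a difference of 0.23 (SE 0.060). Ift27, a small GTPase subunit that works with the BBSome, differed by 0.20 (SE 0.063), and its other 2 probe sets by 0.20 and 0.12. Ift140, another complex A subunit, went from 10.71 ± 0.20 (SD, n = 4) to 10.88 ± 0.11 (SD, n = 5), with overlapping groups. The complex B subunits Ift52 and Ift22 stood at differences of −0.012 (SE 0.096) and −0.023 (SE 0.075), and Ift88, another subunit of that complex, at 0.049 (SE 0.064).

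Kif3a, a motor subunit of the kinesin-2 that pulls these trains, lay on the other side. It stood at 9.30, 9.70, 9.58 and 9.37 in wild type and at 9.45, 9.12, 9.24, 9.40 and 9.45 in the knockout, a difference of −0.15 (SE 0.10) with overlapping groups. Its other 3 probe sets differed by −0.58, −0.26 and −0.25, so all 4 pointed the same way. Its motor partner gene Kif3b differed by 0.035 (SE 0.076) and Kifap3, which encodes the associated protein of that motor, by −0.13 (SE 0.084).

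All 8 Bbs genes stood higher in the knockout, with a median of 0.20, though in none were the groups separate. Bbs12, a chaperonin-like protein that helps to assemble the BBSome, stood at 7.73, 6.90, 7.19 and 6.68 in wild type and at 7.49, 7.88, 7.80, 7.79 and 7.84 in the knockout. The groups overlapped through wild type replicate 1, which lay near the knockout level, and through knockout replicate 1, and the difference was 0.63 (SE 0.19, 1.55-fold). Bbs10, of the same chaperonin-like kind, differed by 0.29 (SE 0.20). Among the BBSome subunits proper, Bbs7 differed by 0.23 (SE 0.069), Bbs2 by 0.17 (SE 0.093) and Bbs5 by 0.060 (SE 0.11).

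Transition zone genes of the set include the tectonics, Nphp4 and Cep290, the last of which is given with the Cep genes below (difference 0.0058, SE 0.11). Tctn1 stood at 7.61, 7.23, 7.42 and 7.25 in wild type and at 7.73, 7.85, 7.62, 7.61 and 8.06 in the knockout. Wild type replicate 1 and knockout replicate 4 were at almost the same level, so the groups touched, and the difference was 0.40 (SE 0.12, 1.32-fold). Tctn3 differed by 0.21 (SE 0.10) and Tctn2 by 0.18 (SE 0.15). Nphp4, whose product nephrocystin-4 sits in the same gate, had a wild type mean of 5.43 ± 0.11 (SD, n = 4) and a knockout mean of 5.27 ± 0.21 (SD, n = 5), a difference of −0.17 (SE 0.11).

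The 3 tectonic promoters are shown because each holds an X-box, the motif of the RFX transcription factors that switch on many ciliary genes. The sequences are from RefSeq (GRCm38.p6), from 250 bases before to 50 after the start, on the strand of the gene; capitals mark the X-box. Tctn1 is at chr5:122264411-122264710 on the minus strand, Tctn2 at chr5:124598499-124598798 on the plus strand and Tctn3 at chr19:40612182-40612481 on the minus strand.
Tctn1: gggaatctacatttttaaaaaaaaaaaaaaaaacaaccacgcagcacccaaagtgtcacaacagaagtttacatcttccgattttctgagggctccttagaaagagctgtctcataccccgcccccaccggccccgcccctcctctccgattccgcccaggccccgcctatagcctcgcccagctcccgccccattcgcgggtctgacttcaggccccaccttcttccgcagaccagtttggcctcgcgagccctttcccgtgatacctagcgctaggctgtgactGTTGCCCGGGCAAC
Tctn2: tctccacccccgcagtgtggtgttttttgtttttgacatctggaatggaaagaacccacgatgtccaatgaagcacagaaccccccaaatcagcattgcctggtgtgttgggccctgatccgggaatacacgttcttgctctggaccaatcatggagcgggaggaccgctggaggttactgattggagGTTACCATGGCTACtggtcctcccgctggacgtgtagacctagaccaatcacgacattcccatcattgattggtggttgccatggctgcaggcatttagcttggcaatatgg
Tctn3: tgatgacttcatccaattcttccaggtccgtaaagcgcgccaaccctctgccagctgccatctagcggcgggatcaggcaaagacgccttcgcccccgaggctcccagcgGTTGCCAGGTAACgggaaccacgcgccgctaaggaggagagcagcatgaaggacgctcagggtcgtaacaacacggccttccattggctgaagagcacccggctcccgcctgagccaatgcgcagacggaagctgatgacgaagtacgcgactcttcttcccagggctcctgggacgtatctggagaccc
Counted from the start of the gene, the X-box begins at base 37 in Tctn1, at −62 in Tctn2 and at −140 in Tctn3.

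Of the 77 genes, 68 had a promoter in the RefSeq table. The X-box, searched on both strands with a spacer of 0 to 3 bases between its arms, was found in 8 of the 68 (11.8%), against 2.03% of the 14369 platform genes in that table. The shorter motif GTTGCC, an arm of the X-box that can overlap it, was searched on both strands too and was found in 27 (39.7%), against 14.7%. The 8 genes with an X-box were Bbs1, Cep112, Cep41, Ift57, Spag16, Tctn1, Tctn2 and Tctn3. All 8 stood higher in the knockout, by 0.065 to 0.40 with a median of 0.18. Of the 58 tested genes without one, 47 stood higher, with a median of 0.16. All 7 genes of the table whose knockout arrays lay above the wild type arrays were among these 58. The set was selected on this difference, so nothing is read from these counts. A match describes letters in the window and not a bound site.

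Cep112 and Ift57 each hold 2 X-boxes, and the Cep112 window is shown as the example, at chr11:108425016-108425315 on the plus strand, with both in capitals.
Cep112: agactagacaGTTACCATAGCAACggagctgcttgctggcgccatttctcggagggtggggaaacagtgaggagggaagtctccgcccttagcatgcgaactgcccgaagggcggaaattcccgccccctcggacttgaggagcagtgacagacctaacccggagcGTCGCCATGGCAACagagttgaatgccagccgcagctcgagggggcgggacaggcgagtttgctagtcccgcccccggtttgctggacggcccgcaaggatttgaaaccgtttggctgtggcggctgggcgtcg
The gene stood at 7.49, 7.14, 7.47 and 7.45 in wild type and at 7.61, 7.71, 7.34, 7.44 and 7.56 in the knockout. These groups overlapped, with a difference of 0.14 (SE 0.10).

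Intu and Fuz encode planar cell polarity effectors that act together in building the cilium. Intu stood at 6.87, 6.99, 7.05 and 7.03 in wild type and at 7.40, 7.44, 7.30, 7.21 and 7.52 in the knockout. All knockout arrays lay above all wild type arrays, a difference of 0.39 (SE 0.075, 1.31-fold). Its further probe sets did not all point that way, at −0.30, 0.25 and 0.20. Fuz ranged widely within each genotype, from 6.16 to 7.19 in wild type and from 6.64 to 7.29 in the knockout, with a difference of 0.24 (SE 0.22). Pcnt, the pericentrin scaffold of the centrosome, differed by 0.12 (SE 0.067), and its further probe set by 0.27.

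The Cep genes, which name centrosomal proteins of many roles, made up 36 of the tested genes. In the knockout 32 of them were higher and 4 were lower, and their median was 0.16. Cep164, which builds the distal appendages that dock the centriole to the membrane, stood at 8.46, 8.18, 8.38 and 8.28 in wild type and at 8.76, 8.67, 8.65, 8.72 and 8.75 in the knockout. The groups were apart and the knockout arrays lay close together, with a difference of 0.39 (SE 0.067, 1.31-fold). Its further probe set above the floor of 4 differed by 0.53. Cep89, of the same appendages, stood at 6.78, 6.29, 6.73 and 6.45 against 6.86, 6.83, 7.01, 6.86 and 7.13, a difference of 0.38 (SE 0.11). The groups of Cep89 were apart by a narrow gap, and its other 2 probe sets differed by only 0.017 and 0.090.

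Several Cep genes serve centriole duplication and assembly. Cep152, the scaffold that recruits the kinase Plk4, stood at 7.43, 7.03, 6.96 and 7.15 in wild type and at 7.43, 7.79, 7.37, 7.55 and 7.81 in the knockout. Wild type replicate 1 lay within the knockout range, and the difference was 0.45 (SE 0.13, 1.36-fold). Its partner Cep63 differed by 0.29 (SE 0.092), and Cep44, needed for centrioles to mature into centrosomes, by 0.24 (SE 0.083) with separate groups. Cep135, an early centriole assembly protein measured at 4.25 to 5.09, differed by −0.20 (SE 0.15).

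Cep97, the partner of the centriole cap protein Cp110 that holds cilium growth back, lay higher as well. It stood at 9.56, 8.87, 9.05 and 8.74 in wild type and at 9.44, 9.49, 9.43, 9.46 and 9.59 in the knockout. Wild type replicate 1 again lay at the knockout level, and the difference was 0.43 (SE 0.15). Of its 3 further probe sets, 2 differed by 0.38 and 0.57 and the other by −0.079. Cep162, which promotes assembly of the transition zone, differed by 0.43 (SE 0.14), and its other probe sets by 0.46 and 0.14. Cep95 differed by 0.43 (SE 0.17) on its brightest probe set, but by −0.0016 and −0.026 on the other 2. Cep70, whose groups were apart, differed by 0.32 (SE 0.11).

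Several Cep genes stood close to 0. Cep290, a transition zone protein, differed by 0.0058 (SE 0.11), Cep83 of the distal appendages by 0.068 (SE 0.10), Cep120 of the centriole by 0.064 (SE 0.048) and Cep170 by 0.025 (SE 0.061). Cep85 went from 11.22 ± 0.07 (SD, n = 4) to 11.27 ± 0.24 (SD, n = 5). Cep350, a large scaffold of the centrosome, differed by −0.027 (SE 0.085).

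Some genes of dividing cells in the set stood lower in the knockout. Cep55, which acts at the midbody when daughter cells separate, stood at 6.42, 6.60, 5.94 and 6.18 in wild type and at 5.21, 5.22, 5.98, 6.09 and 5.91 in the knockout. Knockout replicates 1 and 2 were lowest and the groups overlapped slightly, with a difference of −0.60 (SE 0.22, 1.52-fold lower). Spag5, the spindle protein astrin, stood at 4.24, 5.39, 4.35 and 4.49 in wild type and at 3.43, 4.21, 4.16, 4.21 and 4.79 in the knockout. That is a difference of −0.46 (SE 0.30) near background, with wild type replicate 3 and knockout replicate 5 highest in their groups, and its further probe set above the floor differed by 0.071. In a list of 21 tested cell division genes outside the set, 15 stood lower and 6 higher, with a median of −0.23. The knockout arrays lay below the wild type arrays for Prc1, a spindle midzone protein (−0.54, SE 0.13), and Rrm2, a ribonucleotide reductase subunit (−0.26, SE 0.080). Over all tested genes, 2.16% had knockout arrays below the wild type arrays. Of the 21 genes of the list, 0 passed in limma and 3 (14.3%) had an unadjusted p under 0.05, all lower, beside 19.9% of all tested genes (7.12% lower). Averaged over the list, wild type arrays ran from 5.74 to 5.90 and knockout arrays from 5.48 to 5.85.

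The Spag genes went both ways: of 9 tested, 5 stood higher and 4 lower, with a median of 0.063. Spag6, a protein of the central pair of the motile axoneme, had the largest difference of the whole set. It stood at 4.81, 3.997, 4.67 and 4.42 in wild type and at 5.67, 5.85, 4.84, 5.78 and 5.96 in the knockout. The groups were apart by a narrow margin because of knockout replicate 3, and the difference was 1.14 (SE 0.25, 2.21-fold). These levels are low, and wild type replicate 3 lay just under the floor of 4, so the fold is not exact. Spag6 shares much of its sequence with its copy Spag6l, which stood at 4.06, 4.06, 4.39 and 4.07 against 3.81, 4.06, 3.96, 3.88 and 4.06, a difference of −0.19 (SE 0.089); which of the copies the probes read was not tested.

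Spag6 lies on chromosome 2, as does Ptgds, with 70 protein-coding genes between them in the gene order of GRCm38.p6. Of the set, 5 more tested genes are on that chromosome and farther away, from Bbs5 with 352 genes between to Ift52 with 1381, and their differences ran from −0.012 for Ift52 to 0.45 for Cep152. The labels do not say from which strain the DNA around the targeted allele comes. Its part in these differences was not tested.

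The other Spag genes were of mixed kinds. Spag1, which helps to assemble dynein arms in the cytoplasm, differed by 0.38 (SE 0.18). Spag9, a scaffold for motors and JNK signalling, went from 12.26 ± 0.05 (SD, n = 4) to 12.20 ± 0.07 (SD, n = 5). Spag16 and Spag17, both of the central pair, stood at 3.95 to 4.27 and at 2.47 to 2.62. Foxj1, the master regulator of motile cilia, stood at 3.37 to 3.83 and the outer arm dynein gene Dnah5 at 3.09 to 3.47, below the floor of 4 on every array.

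**Figure D2:**
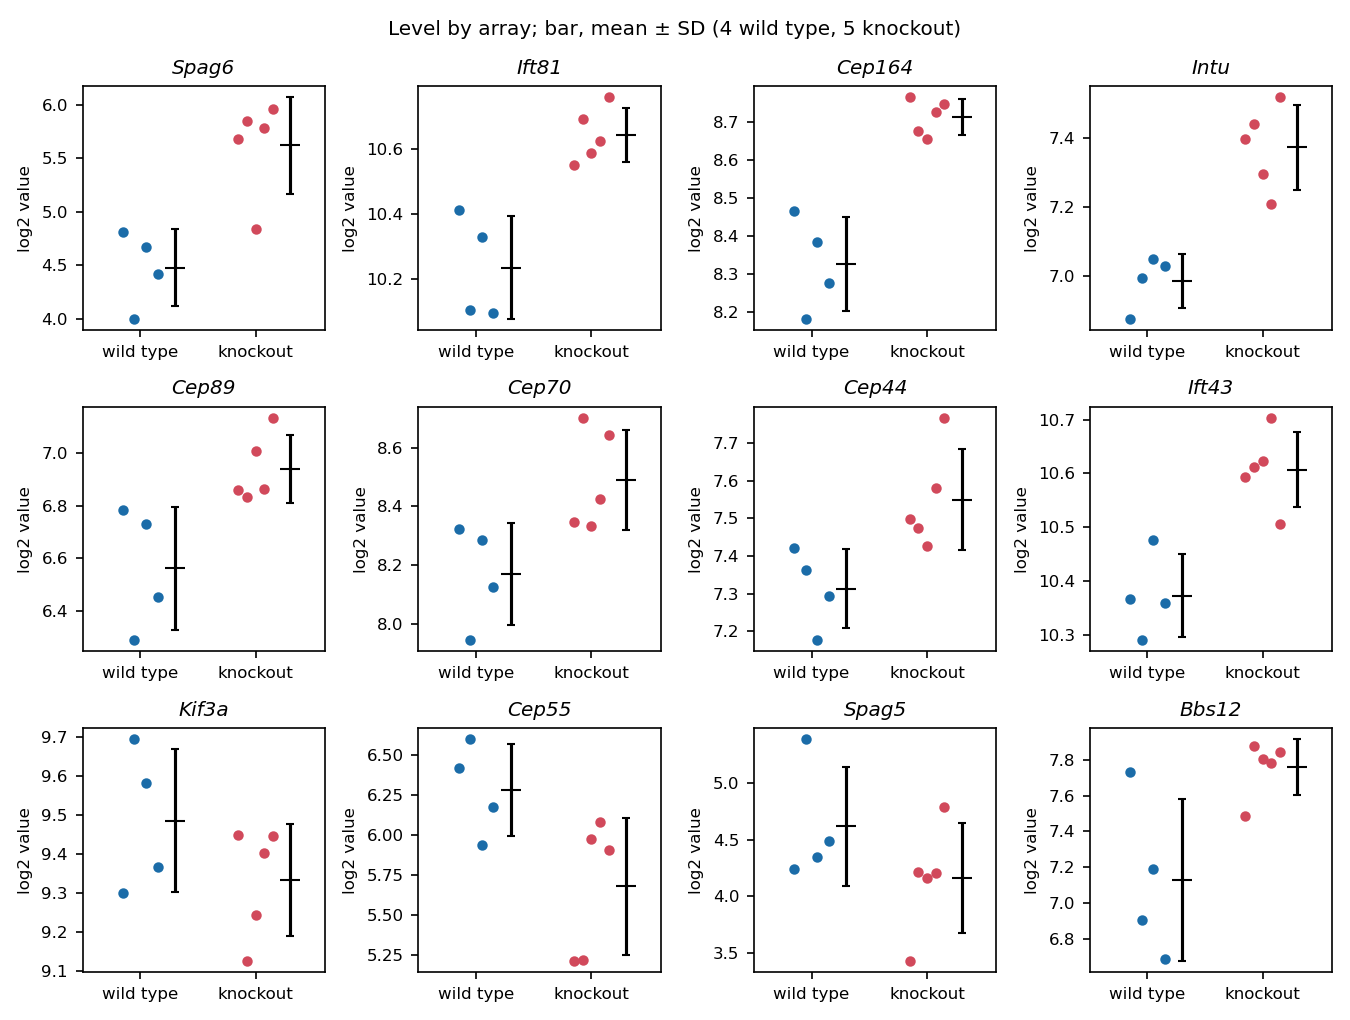
Log2 level on each array (points) with the mean and SD (bar) for the 8 genes whose knockout arrays all lay above the wild type arrays, and for Kif3a, Cep55, Spag5 and Bbs12. Each panel has its own scale; the lowest point of Spag6 in the knockout (4.84) is close to the highest in wild type (4.81), and wild type replicate 1 of Bbs12 (7.73) lies at the knockout level.

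The knockout arrays lay above all wild type arrays for 8 of the 75 genes (Spag6, Ift81, Cep164, Intu, Cep89, Cep70, Cep44 and Ift43) and below them for 0. Among all tested genes these shares were 4.59% and 2.16% (6.76% in either direction). Since the contrast was in view when the set was proposed, nothing is read from the count. In 19 further genes all knockout arrays lay above wild type replicates 3, 4 and 5 but not above replicate 1. The same count was not made over all tested genes, so nothing is read from it either.

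The difference was carried unequally by the arrays. Wild type replicate 3 was the lowest of the 9 arrays for 35 of the 75 genes and wild type replicate 5 for 18, while knockout replicate 5 was the highest for 33. Wild type replicate 3 was the lowest array for 25.5% of all tested genes and knockout replicate 5 the highest for 22.7%, so these 2 arrays often stood at an end. The mean level of the 75 genes was 8.17, 7.94, 8.09 and 7.97 on wild type replicates 1, 3, 4 and 5. It was 8.14, 8.22, 8.14, 8.18 and 8.31 on knockout replicates 1 to 5. Wild type replicates 3 and 5 were lowest, wild type replicate 1 lay above 2 of the knockout arrays, and wild type replicate 4 lay just below the lowest of them. The spread within wild type was wider than within the knockout for 51 genes, with a median SD of 0.17 against 0.13.

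**Figure D3:**
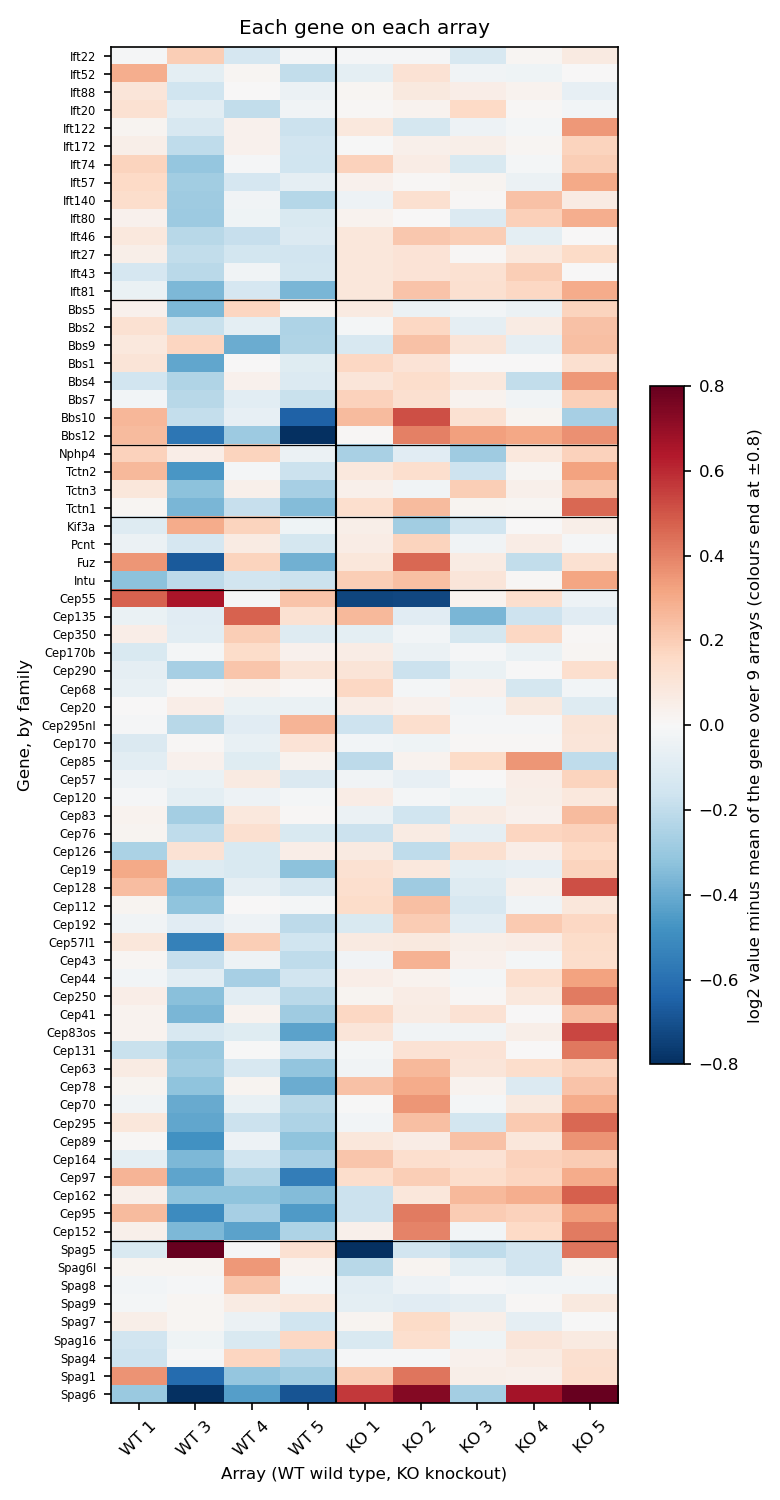
Each row is a tested gene and each column an array; the colour is the log2 value minus the mean of that gene over the 9 arrays. Wild type replicates 3 and 5 are mostly blue (lowest for 35 and 18 genes), wild type replicate 1 is pale to red in many rows, and knockout replicate 5 is mostly red (highest for 33 genes).

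Neuron markers were highest on wild type replicate 3, the array that was lowest for 35 of the 75 genes. All 9 of those markers stood lower in the knockout, with a median of −1.31, and 0 of them passed in limma. Without wild type replicate 3 and knockout replicate 1, the 2 arrays with most neuronal transcripts, 60 of the 75 genes stood higher; their median was 0.10, that of all tested genes 0.024. Without wild type replicate 3 alone the median was 0.094, with 60 of 75 higher. Without wild type replicate 3 and knockout replicate 5 it was 0.088, with 57 of 75 higher, beside 0.019 and 55.3% over all tested genes. Of 8 smooth muscle markers 6 stood higher in the knockout, with list means of 12.09 to 12.27 in wild type and 12.14 to 12.33 in the knockout; 4 had an unadjusted p under 0.05 (50%, against 19.9% of all tested genes), 3 of them higher, and 0 passed in limma. Among them Smtn stood at 12.48, 11.92, 12.38 and 12.08 in wild type (difference 0.27, SE 0.12) and Lmod1 at 11.62, 11.02, 11.29 and 10.95 (difference 0.31, SE 0.13), both lowest on wild type replicates 3 and 5 and high on replicate 1. Tagln, a contractile protein gene, had separate groups at a difference of 0.12 (SE 0.046), and Myocd, the smooth muscle coactivator, stood lower at −0.24 (SE 0.10). The order of Smtn and Lmod1 was not that of the whole list. Myh11 was also lowest on wild type replicates 3 and 5, while Acta2, Cnn1 and Tagln were lowest on replicate 3 but not next on replicate 5. On wild type replicates 1, 3, 4 and 5, Myocd stood at 11.44, 11.52, 11.66 and 11.84, and Des at 8.93, 9.12, 9.05 and 9.01. All 7 endothelial markers stood lower in the knockout, with list means of 9.09 to 9.57 in wild type and 8.89 to 9.20 in the knockout. In limma 3 of these 7 had an unadjusted p under 0.05 (42.9%), all lower, beside 7.12% lower of all tested genes, and 0 passed. All 5 macrophage markers did too, at 8.86 to 9.98 and 9.09 to 9.38. All 5 adipocyte markers stood lower as well, at 10.82 to 11.41 in wild type and 10.08 to 11.28 in the knockout. So did all 5 brown adipocyte markers, at 10.80 to 11.64 and 10.21 to 11.01. Knockout replicate 5, the highest array for 33 of the 75 genes, had the lowest mean of both fat lists. Of the other lists, 3 of 7 fibroblast, 2 of 3 Schwann cell, 3 of 4 lymphocyte, 4 of 4 skeletal muscle and 1 of 4 cardiomyocyte markers stood higher. The part of these markers in the result was not tested.

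Without wild type replicate 1, the counts were of another order. Of the 75 genes 12 then passed an adjusted p of 0.05 in limma, all higher in the knockout, as did 1051 of all tested genes (7.34%, with 5.24% higher and 2.10% lower). The 12 were Bbs12, Cep152, Cep164, Cep63, Cep95, Cep97, Ift27, Ift81, Intu, Spag1, Spag6 and Tctn1, and the median of the set was 0.23. Without any 1 other array 0 of the 75 passed. The labels give no reason to leave that array out, and its correlation with the others (0.992) was as high as that of any array.

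**Figure D4:**
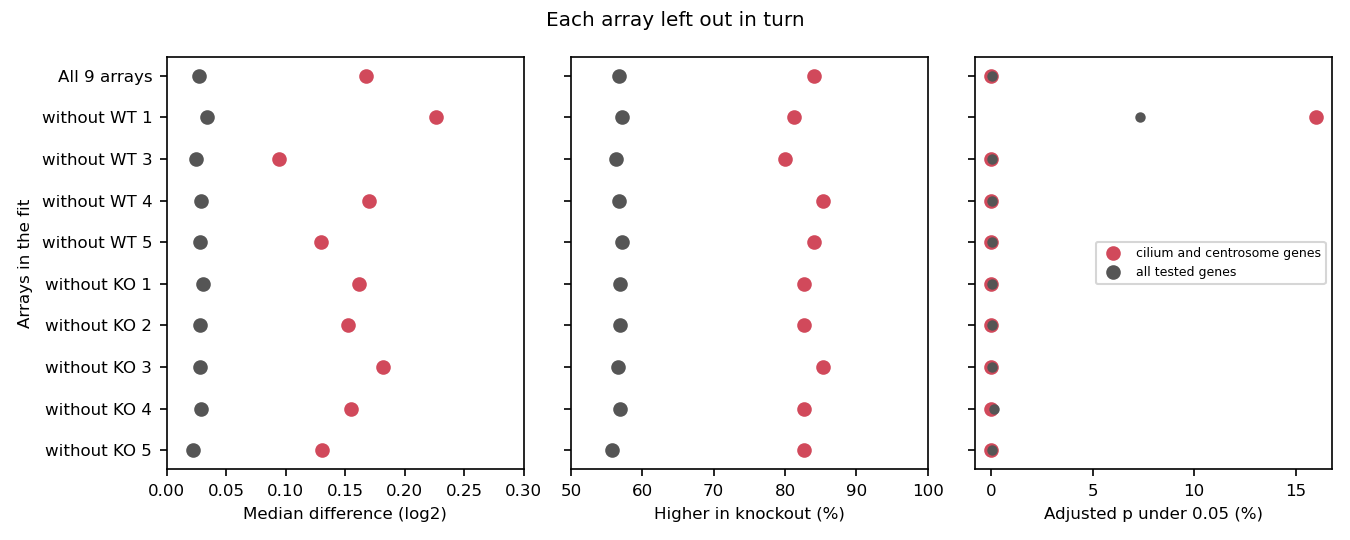
The fit on all 9 arrays and with each array left out in turn: the median difference (log2), the share of genes standing higher in the knockout and the share with an adjusted p under 0.05, for the cilium and centrosome genes and for all tested genes. The median of the set runs from 0.094 without wild type replicate 3 to 0.23 without wild type replicate 1, and genes of the set pass only without wild type replicate 1.

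Further probe sets of the same genes gave a partial second reading from the same arrays. Of 53 further probe sets above the floor, in 33 genes, 37 had the sign of the brightest and 16 the other, with a median difference of 0.059. Of the 53, 34 were higher in the knockout, beside 56.7% of all tested genes on their brightest probe set. For the genes that stood higher by over 0.2 on their brightest probe set, 21 of 28 further probe sets were higher too. These genes were picked on the same contrast and the same arrays, so nothing is read from that count. Of the 77 genes, 35 have 1 probe set each, so their values rest on it. The other 42 have several, but in some, such as Bbs7, Cep55 and Cep63, no further probe set passed the floor. The values of these rest on 1 probe set as well.

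Related genes that the symbol rule leaves out also mostly stood higher. Of 109 tested genes of the cilium, the centrosome and the Hedgehog pathway outside the rule, 84 stood higher and 25 lower, with a median of 0.15. In limma 0 passed an adjusted p of 0.05, and 29 had an unadjusted p under 0.05 (26.6%, against 19.9% of all tested genes), 27 of them higher. Over all tested genes 12.8% were higher at that p. The count of 29 was 44 without wild type replicate 1, beside 26% of all tested genes. It was 15 of 109 without wild type replicate 3, beside 15.3% of all tested genes. Without wild type replicate 3 and knockout replicate 5 it was 14 of 109, beside 13.1%. These lists share arrays and genotypes with the set above and are no independent check of it.

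IFT, BBSome and motor genes under other names stood higher in 16 of 22, with a median of 0.19. Cluap1, an IFT complex B subunit, stood at 9.44, 9.04, 9.19 and 9.08 against 9.47, 9.73, 9.59, 9.54 and 9.68, a difference of 0.42 (SE 0.093) with separate groups. Ttc30a1, an IFT complex B subunit, differed by 0.76 (SE 0.20, 1.69-fold), with wild type replicate 1 at 6.12 inside the knockout range of 6.09 to 6.62. Ttc30a1 lies on chromosome 2, as do Ptgds and Ttc30b, Ttc21b, Wdr34, Kif3b and Mkks of this list. The part of the DNA around the targeted allele in their differences was not tested. Other transition zone and ciliary membrane genes stood higher in 18 of 21, with a median of 0.17, among them B9d1 at 0.38 (SE 0.10) and Cc2d2a at 0.35 (SE 0.099), both of the gate at the cilium's base. Centriole and pericentriolar genes stood higher in 29 of 38, with a median of 0.11, among them Tubgcp2 of the gamma-tubulin complex at 0.35 (SE 0.085) and the centriole gene Cntrob at 0.32 (SE 0.086).

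The Hedgehog pathway signals through the primary cilium. Of 15 tested genes 11 stood higher, with a median of 0.19, among them the co-receptor Boc at 0.32 (SE 0.12) and the kinesin Kif7, which shapes the ciliary tip, at 0.27 (SE 0.11). The signal transducer Smo differed by 0.23 (SE 0.11), and the target genes Gli1 by 0.22 (SE 0.11) and Ptch1 by 0.19 (SE 0.10), each with overlapping groups. The 4 lower genes of this list also had overlapping groups. They were Hhip at −0.38 (SE 0.24), Dhh at −0.35 (SE 0.16), Ihh at −0.21 (SE 0.16) and Gas1 at −0.18 (SE 0.11). Of 23 motile cilium genes on the array 13 were tested, 10 of them higher with a median of 0.15. Ccdc39, a ruler protein of the axoneme, differed by 0.42 (SE 0.11), and Ccdc114, which docks dynein arms, by 0.52 (SE 0.16); both had separate groups.

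**Figure D5:**
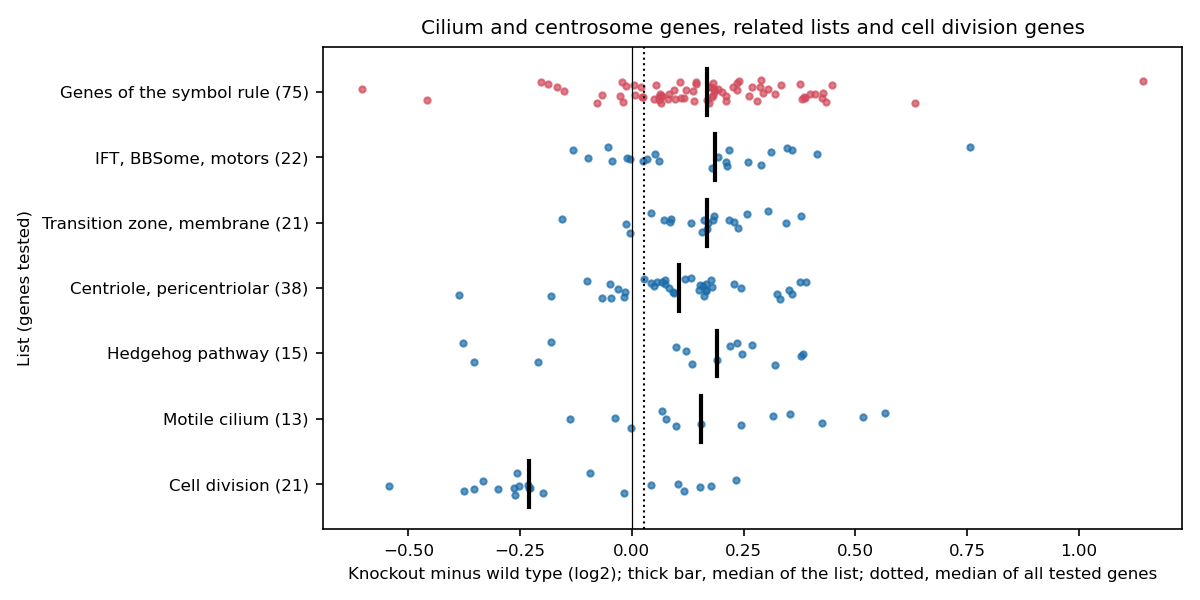
Knockout minus wild type (log2) for the 75 tested genes of the symbol rule and for the related lists outside it; each point is a gene, the thick bar the median of its list and the dotted line the median of all tested genes (0.027). The 5 ciliary and centrosomal lists have medians of 0.11 to 0.19, the cell division genes one of −0.23.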

How the data were processed

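The deposited log2 values are GCRMA output, per the submitters' processing notes: background-corrected, normalized between arrays and summarised by probe set. The GCRMA version and scale are not given in the sources used here, and log2 is read from the range of 1.75 to 14.81. Of 45101 probe sets, 34945 with 1 gene symbol in the platform annotation were kept. A gene was tested if its brightest probe set was over 4 on at least 4 arrays; Cep72 and Spag17 were not. Differences were fitted with limma 3.58.1 in R 4.3.3 (lmFit, eBayes, 2 groups) over 14320 genes, adjusted by Benjamini-Hochberg with a threshold of 0.05; SE is that of the moderated fit. The procedure was tested on simulated data. The number of arrays limits the precision.

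The genes, lists and rules were chosen with earlier results of these data known. Named in full were Ptgds; Intu, Fuz, Kif3a, Pcnt and the Tctn and Nphp genes; per remaining family the gene with the highest mean and those with the largest differences in each direction; and per related list the 2 with the smallest p. Further genes (such as Ift27, Cep164 and Cep97) were named after their values were seen, for separate groups or for their role. Alternatives were other normalization, centring, filters, probe set rules, variance priors, array weights, the replicate number as a block and leaving out arrays.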

Additional observations from a re-analysis of the deposited data

Results flagged for a closer look

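In 3 of 80 groups of values examined, 1 array lay far from the others of its genotype; chance gives about 1 in 20. Bbs12 stood at 7.49 on knockout replicate 1, against 7.78 to 7.88 on the other knockout arrays. Cep162 stood at 7.79 on wild type replicate 1, against 7.40 to 7.43 on the other wild type arrays. Spag6 stood at 4.84 on knockout replicate 3, against 5.67 to 5.96 on the other knockout arrays; that array is also the one with high skeletal muscle markers (9.86).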

How the results depend on the processing

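The median difference of the set stayed above 0 under all 19 alternatives run; it was 0.094 to 0.23 with 1 array left out, 0.13 with array weights or with the mean of a gene's probe sets, and 0.088 without wild type replicate 3 and knockout replicate 5, the last chosen after seeing the data, as was leaving out the 2 arrays with most neuronal transcripts. Counts past the threshold moved more. Over all tested genes 8 passed, against 19 with a floor of 6, 33 with limma's trend and robust options, 73 with array weights, 0 with the replicate number as a block, 3 without the 2 neuron-rich arrays, 1 without wild type replicate 3 and knockout replicate 5, and 2 to 1051 with 1 array left out, the highest without wild type replicate 1. Genes of the set past the threshold were 0, but 1 with array weights (Cep164) and 0 to 12 with 1 array left out. Those with an unadjusted p under 0.05 were 24, and 15 to 32 with 1 array left out. The share of all tested genes under that p was 19.9%, and 13.2% to 26% with 1 array left out. Related genes outside the rule past the threshold were 0, and 0 to 11 with 1 array left out. Under the replicate block, on 8 arrays, Ptgds kept its difference of −5.30 with an adjusted p of 0.126 in limma. In that fit 0 of the 75 genes passed and 10 had an unadjusted p under 0.05, beside 13.7% of all tested genes. No other named gene changed its call. Same-numbered arrays of the 2 genotypes correlated at −0.36, −0.15, 0.06 and 0.21 in their deviations from the group means. The labels do not say whether the numbers pair the samples, and so few correlations cannot decide it. The cause of these moves was not tested.

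Signs turned for 6 named genes with small differences. Bbs5 stood at −0.012 with array weights, −0.049 without wild type replicate 3, −0.061 without the neuron-rich arrays and −0.087 without wild type replicate 3 and knockout replicate 5. Ift22 stood at 0.039, 0.038 and 0.018 under the last 3 of these and at 0.0057 without knockout replicate 3. Ift52 stood at 0.033 with array weights, 0.082 without wild type replicate 1 and 0.0056 without knockout replicate 1. Cep350 stood at 0.034 without wild type replicate 4 and 0.0049 without knockout replicate 3, Cep85 at −0.029 without knockout replicate 4, and Tctn2 at −0.0060 without wild type replicate 3 and knockout replicate 5. With 1 array left out, Bbs5 ran from −0.049 to 0.13, Ift22 from −0.072 to 0.039, Ift52 from −0.080 to 0.082, Cep350 from −0.072 to 0.034 and Cep85 from −0.029 to 0.11. Genes near the floor of 4, such as Spag6 and Spag5, are limited by signal over background.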
